A study of Homo sapiens with 6 samples.

Results

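The spliceosome components described here are 101 protein-coding genes for the machinery of pre-mRNA splicing and factors associated with it. They were taken from the KEGG annotation in the deposited table. Of its 31142 genes, 133 carried the KEGG term Spliceosome. The regulatory families named HNRNP and SRSF, the HSPA chaperones, and U2AF1, U2AF1L4, U2AF1L5, U2AF2, SF1, SF3B1, ZRSR2, LUC7L2, PRPF8 and DDX41 were set aside, which removed 29 genes. Another 3 genes, PRPF40B, RBMXL2 and RBMXL3, had a mean below 1 FPKM over the 6 libraries. FPKM counts fragments per kilobase of transcript, normalised to library size, so levels of different genes can be compared per length. All 101 components were among the 10942 genes at or above that minimum, over which every test was fitted.

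The study asked how a mutant splicing factor changes gene expression in a myeloid line. U2AF1 recognises the AG dinucleotide at the 3′ end of introns, and S34F is a recurrent substitution of serine by phenylalanine in one of its zinc fingers in myelodysplastic syndromes (MDS). The 6 samples were labelled as SKM-1, a human acute myeloid leukemia line derived from MDS. In 3 of them (S34F) FLAG-tagged U2AF1 with the S34F mutation was introduced by lentivirus, and in the other 3 (WT) FLAG-tagged wild-type U2AF1. Both constructs used a ubiquitin promoter vector that also carries GFP and puromycin resistance, were read at 96 h, and left the endogenous U2AF1 genes of the line in place. The titles of the WT samples also carry the prefix NC, which elsewhere in the study stands for negative control, and the RNA-seq method speaks of a vehicle control. The study describes treatment in triplicate and pairs of independent RNA samples, without saying whether these were separate cultures, so p-values measure the spread between these samples, which may be technical.

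The spliceosome removes introns by assembling on each pre-mRNA from 5 small nuclear ribonucleoproteins (snRNPs) and many further proteins. U1 binds the 5′ splice site, U2 with its SF3A and SF3B complexes binds the branch point next to the site read by U2AF1, and the U4/U6.U5 tri-snRNP then joins. Rearrangement by RNA-dependent ATPases and binding of the PRP19 complex make the active enzyme, and the exon junction complex is left on the spliced product. These proteins are made in nearly every cell, and recurrent lesions of a few of them mark myeloid disease.

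Because the components work together, the 100 bases before the RefSeq start were read for the genes on which the results turn. The windows are on GRCh38.p14 and are written 5′ to 3′ on the strand of the gene. Of the 101 components, 87 had an entry by symbol. The first set holds genes whose S34F and WT libraries did not overlap. PHF5A, the fifth gene of that kind, had no entry. Capitals mark exact matches on either strand to CCAAT (the CCAAT box), GGGCGG (the GC box), CCGGAAG (a core of ETS factor sites) and TATAAA (the TATA box). The windows are PRPF38B at chr1:108692210-108692309 on the plus strand, EIF4A3 at chr17:80147129-80147228 on the minus strand, SMNDC1 at chr10:110304921-110305020 on the minus strand and SF3B5 at chr6:144095574-144095673 on the minus strand.
PRPF38B: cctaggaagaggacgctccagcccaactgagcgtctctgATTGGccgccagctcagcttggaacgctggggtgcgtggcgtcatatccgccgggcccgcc
EIF4A3: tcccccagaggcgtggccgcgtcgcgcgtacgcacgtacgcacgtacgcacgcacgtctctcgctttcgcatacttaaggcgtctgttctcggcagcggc
SMNDC1: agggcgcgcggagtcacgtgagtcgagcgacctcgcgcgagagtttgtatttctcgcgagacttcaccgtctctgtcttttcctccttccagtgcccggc
SF3B5: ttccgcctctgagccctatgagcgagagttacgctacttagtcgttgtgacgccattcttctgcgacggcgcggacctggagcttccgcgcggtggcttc

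The next set holds genes that differed most between replicate 3 and the others over both groups, apart from ISY1-RAB43, with DDX39B and SNRPA downward and BCAS2 and BUD31 upward. Their windows are DDX39B at chr6:31542004-31542103 on the minus strand, SNRPA at chr19:40751103-40751202 on the plus strand, BCAS2 at chr1:114581616-114581715 on the minus strand and BUD31 at chr7:99408869-99408968 on the plus strand.
DDX39B: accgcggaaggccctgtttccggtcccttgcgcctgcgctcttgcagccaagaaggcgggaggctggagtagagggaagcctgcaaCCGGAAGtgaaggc
SNRPA: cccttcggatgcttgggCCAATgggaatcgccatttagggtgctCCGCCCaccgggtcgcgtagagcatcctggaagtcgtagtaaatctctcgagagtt
BCAS2: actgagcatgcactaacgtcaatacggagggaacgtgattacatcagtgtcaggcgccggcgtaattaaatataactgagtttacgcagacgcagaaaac
BUD31: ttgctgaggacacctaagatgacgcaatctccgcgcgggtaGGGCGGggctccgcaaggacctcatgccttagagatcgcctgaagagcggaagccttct

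The last set holds the most abundant U2 genes with the ETS letters, SF3B4 at chr1:149927804-149927903, SF3B6 at chr2:24076327-24076426 and SF3A3 at chr1:37990023-37990122, all on the minus strand.
SF3B4: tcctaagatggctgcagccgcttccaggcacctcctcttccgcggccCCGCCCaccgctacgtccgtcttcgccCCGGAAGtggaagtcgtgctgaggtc
SF3B6: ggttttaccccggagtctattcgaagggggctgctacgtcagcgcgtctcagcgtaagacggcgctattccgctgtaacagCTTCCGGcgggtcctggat
SF3A3: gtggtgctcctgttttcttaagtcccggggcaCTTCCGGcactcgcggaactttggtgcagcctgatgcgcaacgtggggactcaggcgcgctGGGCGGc

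The ETS letters CCGGAAG stood in 34 of the 87 windows, or 39.1%, against 13.1% of the 7503 windows of all genes tested and 5.61% of 35116 windows in the whole table. Of the 40 matches, 24 began in the last 50 bases before the start. They were found in 11 of the 15 U2 genes with a window, in 4 of the 6 step factors and in 3 of the 6 Sm genes. The letters also stood in 4 of the 10 exon junction, cap and TREX genes, 6 of the 18 PRP19 genes and 4 of the 15 tri-snRNP genes. None of the 6 LSm genes and none of the 4 U1 genes with a window held them. The GC box went the other way, at 35.6% of the components against 54.1% of the genes tested and 31.3% of all windows. CCAAT stood in 25.3% of the components, against 22.7% of the genes tested and 18.1% of all windows, and TATAAA in 1.15%, 2.12% and 4.99%. These shares were not matched for level, at a median of 20.6 FPKM in all components against 5.31 FPKM in all genes tested. In 3 places matches to different motifs overlapped. ISY1 and its readthrough ISY1-RAB43 both hold the ETS letters and overlap on the genome, so they are not separate cases. The letters were searched in one window per gene, and a match describes the sequence only.

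Depth, estimated from the FPKM that 1 fragment gives in single-exon genes, ran from 20.5 M fragments to 26.1 M. It was lowest in S34F replicate 1. The components held 1.09% to 1.15% of the summed FPKM in S34F and 0.994% to 1.11% in WT. U2AF1 itself stood at 9.24, 9.48 and 9.18 FPKM in S34F replicates 1 to 3 and at 8.67, 8.70 and 7.65 FPKM in WT. Endogenous and introduced transcripts cannot be told apart in these values. Markers went against the myelomonocytic origin of SKM-1. All 12 erythroid markers, led by HBE1, averaged 1 FPKM or more, and together they made 3.63% to 4.09% of the summed FPKM in S34F and 3.33% to 3.73% in WT. Of 12 monocytic markers only LYZ, CD68, CD33 and ITGAM reached a mean of 1 FPKM. Their summed level was 45.8 to 75.8 FPKM in S34F and 67.2 to 88.8 FPKM in WT. FCN1, MPO and S100A8 were listed at 0 in most libraries. The samples are therefore called by their U2AF1 form alone. Replicate 3 stood apart in both groups, and mitochondrial genes made 21.9% of the summed FPKM in S34F replicate 3 against 25.3% to 26.9% elsewhere. The part of these differences in the results was not tested, and the main counts are given with and without both replicates 3.

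The components were abundant, with a median level of 20.6 FPKM against 5.31 FPKM for all genes tested, but their levels spanned 327-fold. The 8 highest were SF3B5 at 384 FPKM, SNRPB at 274, PCBP1 at 203, SNRPC at 182, LSM2 at 157, PRPF19 at 128, SNRPG at 104 and SF3B4 at 88.3, as means over 6 libraries. The 4 lowest were CRNKL1 at 2.45 FPKM, THOC1 at 2.43, ISY1-RAB43 at 1.18 and THOC2 at 1.17. Proteins that sit side by side in the Sm or LSm ring were encoded by mRNAs at very different levels. The highest gene exceeded the lowest by 62.4-fold in the LSm ring and by 12.8-fold in the Sm ring. The U2 and U1 groups also hold associated factors. They spanned 100.6-fold from SF3B5 to U2SURP and 56.5-fold from SNRPC to RBM25. Within a single library the Sm ring spanned 11.5-fold to 15.1-fold and the LSm ring 46.1-fold to 81.4-fold.

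**Figure D1:**
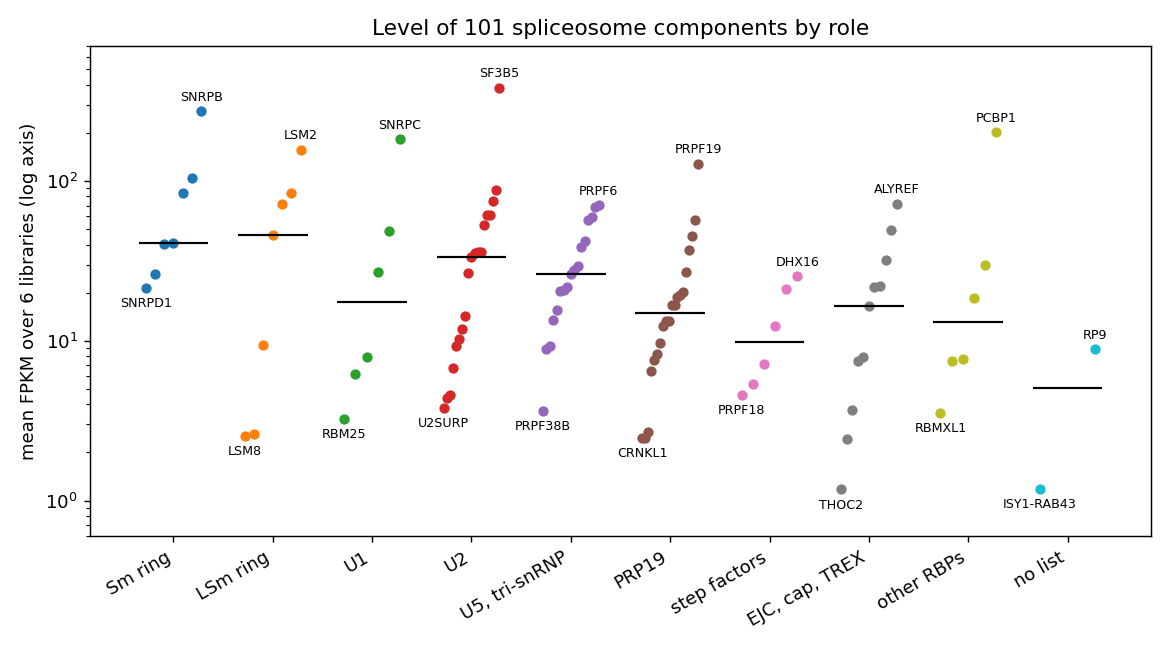
Mean FPKM over 6 libraries (log axis) of each of the 101 components, grouped by role, with the median of each group as a bar and the highest and lowest gene named. SF3B5 at 384 FPKM is the highest and THOC2 at 1.17 FPKM the lowest, and most groups span more than 10-fold.

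The Sm ring is the heptamer that encloses U1, U2, U4 and U5 snRNAs, and the LSm2-8 ring encloses the end of U6. SNRPB encodes the SmB and SmB′ proteins. It was read at 315, 304 and 222 FPKM in S34F replicates 1 to 3 and at 276, 277 and 249.3 FPKM in WT. SNRPN, the related gene outside the annotated term, had a mean of 0.0894 FPKM. The other Sm genes followed in the order SNRPG (104 FPKM), SNRPD2 (84.4), SNRPE (41.2), SNRPF (40.2), SNRPD3 (26.2) and SNRPD1 (21.4). The ranges of SNRPG and SNRPD2 and of SNRPD3 and SNRPD1 overlapped across libraries, but the first of each pair was higher within all 6 libraries, while SNRPE and SNRPF changed places between libraries. In the LSm ring LSM2 (157 FPKM), LSM4 (84.5), LSM7 (71.8) and LSM3 (46.1) were the high genes, and LSM4 exceeded LSM7 within all 6 libraries although their ranges overlapped. LSM5 lay at 9.43 FPKM, LSM6 at 2.61 and LSM8 at 2.52. LSM8, the subunit that sets the nuclear ring apart from the cytoplasmic one, ranged from 2.32 to 2.81 FPKM and changed places with LSM6 between libraries.

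**Figure D2:**
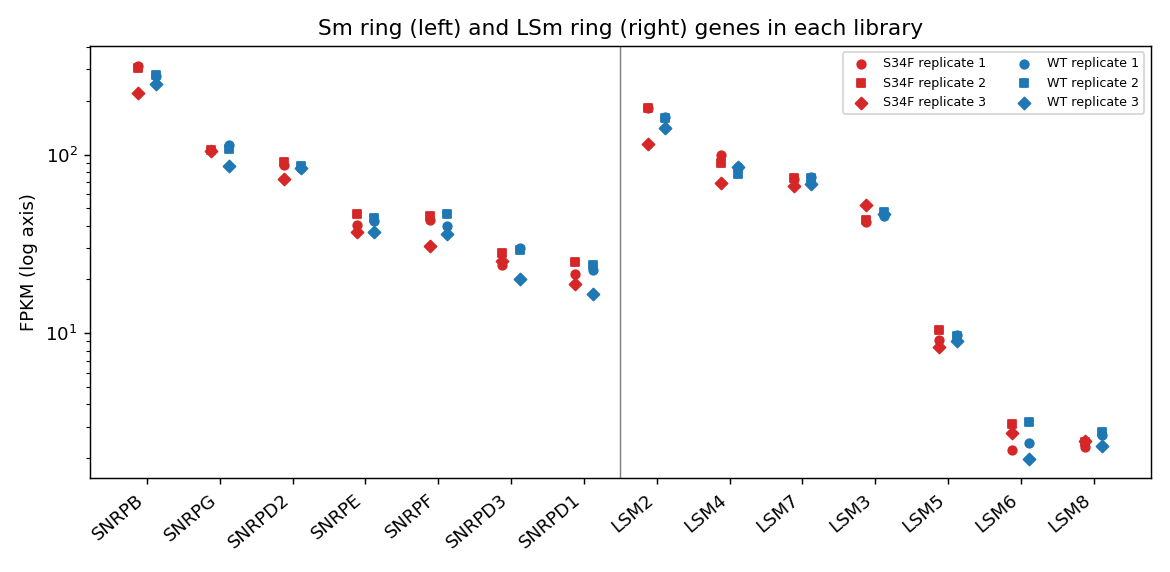
FPKM (log axis) of the Sm genes (left) and LSm genes (right) in each library, S34F in red and WT in blue, with the replicate number as symbol. The 2 groups overlap in every gene, and LSM5, LSM6 and LSM8 lie well below LSM2, LSM3, LSM4 and LSM7.

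The U1 group was led by SNRPC, the protein U1-C that steadies the pairing with the 5′ splice site. Its libraries were the most even of the group, at 185, 186 and 183 FPKM in S34F and 184, 182 and 176 FPKM in WT. SNRNP70 (U1-70K) followed at 48.4 FPKM and SNRPA (U1-A) at 27.1, while the associated factor RBM25 was the lowest of the group at 3.23 FPKM.

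The U2 group is nearest to U2AF1 in the pathway. Of its SF3B subunits, SF3B5 was at 384 FPKM, SF3B4 at 88.3, SF3B6, which touches the branch point, at 74.9, PHF5A at 61.0, SF3B2 at 33.5 and SF3B3 at 26.4. The SF3A trimer was more even, with SF3A3 at 61.0 FPKM, SF3A2 at 52.9 and SF3A1 at 36.1. SNRPB2 (U2-B″) at 11.8 FPKM and SNRPA1 (U2-A′) at 10.2 were low for proteins of the snRNP itself. PUF60, a relative of U2AF2 that binds polypyrimidine tracts, had 36.0 FPKM. CHERP, RBM17 and U2SURP, which work as one module on U2, had 14.3, 9.26 and 3.81 FPKM, and SMNDC1 (SPF30) had 4.39. The ATPases of this step were DDX39B (UAP56, which loads U2) at 35.3 FPKM, DDX42 at 6.79 and DDX46 (PRP5) at 4.59.

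Among U5 and tri-snRNP genes PRPF6, a bridge between U5 and U4/U6, was highest at 70.7 FPKM. The ATPase SNRNP200 (Brr2), which unwinds U4 from U6, stood at 41.9 FPKM and DDX23 (Prp28), which displaces U1, at 27.9. PRPF38B was the lowest of these 17 genes at 3.63 FPKM. In the PRP19 group the ubiquitin ligase PRPF19 itself had 128 FPKM, while its partner CDC5L had 6.49, and the helicase AQR (2.69), CDC40 (2.47) and CRNKL1 (2.45 FPKM) were lowest. Of the ATPases of catalysis and release, DHX16 (Prp2) stood at 25.3 FPKM, DHX38 (Prp16) at 21.1, DHX15 (Prp43) at 12.4 and DHX8 (Prp22) at 5.40, and the step factor PRPF18 at 4.55. Of the ATPases named here, AQR was thus the lowest and SNRNP200 the highest. ALYREF, an mRNA export adaptor, led the exon junction, cap and TREX group at 72.2 FPKM and THOC2, the scaffold of the THO complex, was last at 1.17. In the group of other RNA binding proteins, PCBP1 was at 203 FPKM and RBMXL1 at 3.53.

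Related pairs were unequal. MAGOH, the exon junction subunit, exceeded its near-identical copy MAGOHB by 11.4-fold to 14.9-fold in 5 libraries and by 20.5-fold in S34F replicate 3. RBMX exceeded its copy RBMXL1 by 4.57-fold to 6.40-fold. TRA2B exceeded TRA2A by 1.11-fold to 1.25-fold in replicates 1 and 2, but the ratio was 0.694 in S34F replicate 3 and 0.849 in WT replicate 3. How fragments shared by such copies were split is not given in the sources used here, so these levels are uncertain. The same holds for ISY1 and ISY1-RAB43. The readthrough was listed at 0 in S34F replicate 1 and WT replicates 1 and 2 and at 1.82 to 3.39 FPKM in the others. With ISY1 it summed to 7.23, 8.64 and 12.6 FPKM in S34F and to 9.30, 8.90 and 10.1 FPKM in WT.

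The comparison of S34F with WT asked whether the machinery itself was differently expressed beside the mutant splice site factor. Few components differed. By limma on log2(FPKM + 1) 1 of 101 components, PRPF38B, passed an unadjusted p of 0.05, against 2.39% of all genes tested. It was higher in S34F, the direction of 0.823% of all genes tested, and 0 components were called lower, against 1.57%. With the replicate number as a block 1 component was again called, PRPF38B, against 4.05%. In the main fit PRPF38B was also the 1 component that passed with a fold above 1.5, against 0.585% of all genes tested. ISY1-RAB43 had a log2 difference of 0.70, also beyond 1.5-fold, but did not pass. With Benjamini-Hochberg adjustment over 10942 genes 0 components and 0 genes (0%) passed 0.05. The 95% limma interval of the difference lay within 1.5-fold in either direction for 92 of 101 components, against 73.7% of all genes tested. The 9 others were PRPF38B, ISY1-RAB43, NCBP2, BCAS2, THOC3, DDX39B, DDX5, SLU7 and TXNL4A, whose intervals reached beyond a change of that size. The components also varied little between libraries, with a median SD over all 6 of 0.14 on the log2 scale against 0.18 for the genes tested. Their median level was higher, at 20.6 FPKM against 5.31 FPKM, and neither the interval shares nor the SDs were matched for level. In such bulk samples, fewer cells with a transcript and less transcript per cell cannot be told apart.

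PRPF38B encodes a relative of the tri-snRNP factor PRPF38A with an arginine and serine-rich tail. The gene (ENSG00000134186) lies on chr1:108692323-108701803, plus strand, in GENCODE 29 on GRCh38, with 5 annotated transcripts. It was read at 3.12, 6.33 and 5.57 FPKM in S34F replicates 1 to 3 and at 2.89, 1.91 and 1.96 FPKM in WT. Every S34F library lay above every WT library, but S34F replicate 1 was closer to the WT libraries than to the other S34F libraries. The means were 5.01 ± 1.68 FPKM (SD, n = 3) and 2.25 ± 0.551 FPKM (SD, n = 3), a ratio of 2.22. On the log2 scale the difference was 0.86 with an SE of 0.24 and a 95% interval from 0.29 to 1.42. By limma the unadjusted p = 0.00927 and the adjusted p = 0.9999, and the exact permutation test, two-sided, gave p = 0.1, the smallest value that 3 against 3 can give. Without both replicates 3 the difference was 0.71 and no longer passed an unadjusted 0.05. PRPF38A, at 13.4 FPKM, showed a difference of 0.11 with a 95% interval from -0.20 to 0.42.

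In 5 components the groups did not overlap with S34F higher, against 3.66% of all genes tested, and in 0 with S34F lower, against 3.73%. Beside PRPF38B these were EIF4A3, SMNDC1, PHF5A and SF3B5, none of which passed the test. EIF4A3, the RNA-clamping ATPase of the exon junction complex on chr17:80135214-80147183 (minus strand), was read at 17.5, 17.2 and 17.8 FPKM in S34F and at 15.8, 15.9 and 14.1 FPKM in WT. Its S34F libraries spanned less than 1 FPKM, and the log2 difference was 0.19 with a 95% interval from -0.05 to 0.42 (limma). The other 3 belong to the U2 group.

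SMNDC1, a Tudor domain protein of U2 on chr10:110290730-110304951 (minus strand), stood at 4.63, 4.96 and 4.47 FPKM in S34F and at 4.23, 4.12 and 3.94 FPKM in WT. The gap between the nearest libraries of the groups was small, and the log2 difference was 0.16 with a 95% interval from -0.07 to 0.39. PHF5A, the zinc finger subunit of SF3B on chr22:41459717-41468725 (minus strand), stood at 64.0, 65.9 and 63.1 FPKM in S34F and at 59.2, 60.4 and 53.6 FPKM in WT. WT replicate 3 was its lowest library, and the log2 difference was 0.16 with a 95% interval from -0.07 to 0.38. SF3B5, an intronless gene for the smallest SF3B subunit on chr6:144094881-144095573 (minus strand), stood at 406, 379 and 392 FPKM in S34F and at 376, 374 and 375 FPKM in WT. Its WT libraries were nearly equal and S34F replicate 2 lay just above them, with a log2 difference of 0.07 and a 95% interval from -0.12 to 0.25. The exact permutation p of each of these genes was 0.1, the smallest possible, and the adjusted limma p 0.9999. Under median-ratio, upper quartile and quantile scaling the groups of SF3B5 overlapped, and those of the other 4 components did not.

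**Figure D3:**
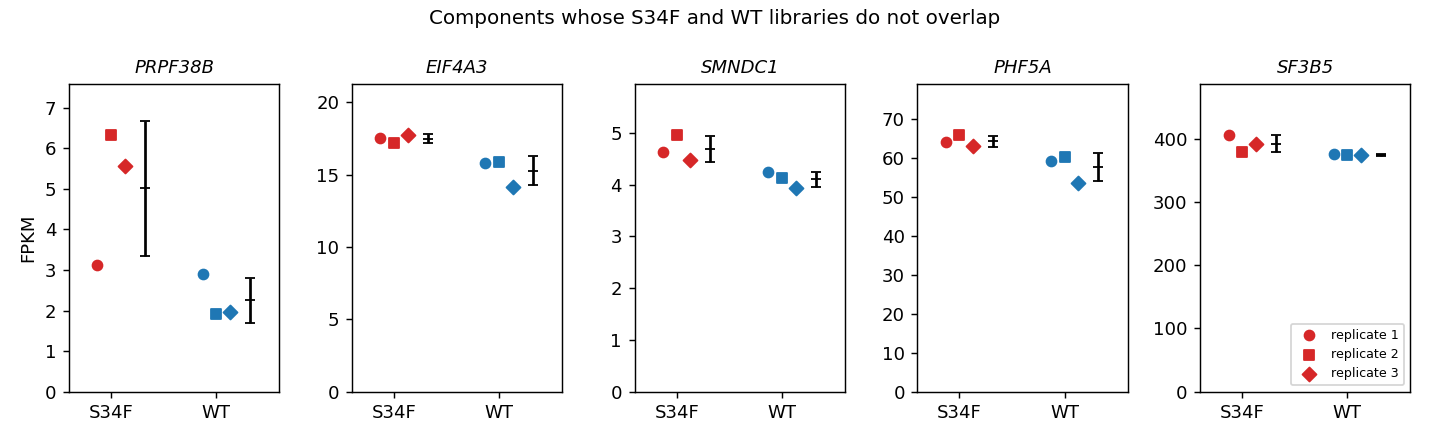
FPKM of the 5 components whose S34F (red) and WT (blue) libraries do not overlap, with the replicate number as symbol and the mean ± SD of 3 libraries in black. PRPF38B differs 2.22-fold in its means, and the other 4 differ by less than 0.2 on the log2 scale.

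By direction alone 73 of 101 components had a log2 difference above 0, against 54.6% of all genes tested, and their median was 0.04 against 0.01. Scaling moved the components and the other genes together. With each library scaled to the same sum 87.1% of the components lay above 0, against 63.5% of the genes tested, and with quantile normalization 61.4% against 52.6%. Without WT replicate 3 49 components (48.5%) lay above 0, against 47.8% of the genes tested, and without both replicates 3 48 (47.5%), against 47.9%. Among roles, 16 of 20 PRP19 genes, 14 of 19 U2 genes, 12 of 17 tri-snRNP genes, 8 of 11 exon junction, cap and TREX genes, 5 of 6 U1 genes, 4 of 6 step factors and 6 of 6 other RNA binding proteins were above 0, and 3 of 7 in each ring. Without both replicates 3 the numbers were 9 of 20 PRP19 genes, 10 of 19 U2 genes, 8 of 17 tri-snRNP genes, 6 of 11 exon junction, cap and TREX genes, 3 of 6 U1 genes, 1 of 6 step factors, 3 of 6 other RNA binding proteins and 3 of 7 in each ring. Over all 6 libraries only the tri-snRNP group held a gene that passed the test, PRPF38B.

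The U2 genes, which act at the site that U2AF1 marks, lay between a log2 difference of -0.12 for DDX39B and 0.17 for DDX42, with 0 of 19 called. For SF3B2 the difference was -0.001 with a 95% interval from -0.22 to 0.22, for SF3A1 0.00 from -0.25 to 0.25, and for SF3B4 0.05 from -0.19 to 0.28. DDX39B had the widest interval of the group, from -0.69 to 0.46. Of the other ATPases, SNRNP200, DDX23, DHX16 and DHX38 had log2 differences between -0.01 and 0.01. DHX15 stood at 0.11 with an interval from -0.21 to 0.43, and AQR at 0.21 with an interval from -0.16 to 0.58. DHX8 lay within the range of the step factors, -0.01 to 0.14.

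Larger estimates without a call stood on uneven libraries. SNRNP70 had the lowest log2 difference, -0.24 ± 0.13 (SE), with an exact permutation p = 0.2. It was read at 50.7, 38.8 and 43.6 FPKM in S34F and at 49.3, 55.3 and 52.7 FPKM in WT, so the groups overlapped through S34F replicate 1. NCBP2, the cap-binding subunit CBP20, was read at 7.69, 7.91 and 9.26 FPKM in S34F and at 8.23, 4.97 and 6.72 FPKM in WT. WT replicate 2 was low and WT replicate 1 lay within the S34F range, with a log2 difference of 0.30 ± 0.18 (SE) and an exact permutation p = 0.3. Without S34F replicate 1 the difference of SNRNP70 was -0.34, and without WT replicate 1 that of NCBP2 was 0.45, and each then passed an unadjusted 0.05 by limma. Other single libraries moved them the other way, since without S34F replicate 2 the difference of SNRNP70 was -0.15 and without WT replicate 2 that of NCBP2 was 0.13, and neither passed.

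Much of the spread within the groups lay in replicates 3. In S34F replicate 3 57 components, and in WT replicate 3 45, lay more than 0.2 on the log2 scale from the mean of the other libraries of their group, or 56.4% and 44.5% against 62.9% and 46.3% of all genes tested. In each of the other libraries 19 to 33 components did so, or 18.8% to 32.7%, against 25.9% to 42.8% of all genes tested. Both replicates 3 were the lowest of their group for 44 of 101 components (43.6%), against 29.4% of all genes tested, and both the highest for 8 (7.92%), against 21.3%. For replicate 1 the matching numbers of components were 6 and 11, or 5.94% and 10.9%, against 8.1% and 12.7% of all genes tested. For replicate 2 they were 5 and 21, or 4.95% and 20.8%, against 10.6% and 9.97%. The median component in WT replicate 3 lay 0.15 below the mean of WT replicates 1 and 2 on the log2 scale, and in S34F replicate 3 0.02 below. The deviations of the 2 replicates 3 from their groups had a Pearson r of 0.596 and a Spearman rho of 0.473 over 101 components, and 0.38 and 0.439 over the 10942 genes tested. These values describe 2 libraries and are not a test.

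DDX39B was read at 40.1, 36.4 and 24.9 FPKM in S34F and at 41.8, 42.0 and 26.6 FPKM in WT. Both replicates 3 were far below the others, by 0.60 and 0.64 on the log2 scale, and the groups overlapped. SNRPA was read at 30.8, 31.3 and 20.0 FPKM in S34F and at 29.1, 30.3 and 21.0 FPKM in WT, again with only replicates 3 low. THOC3, a THO complex subunit, was read at 29.8, 24.7 and 16.6 FPKM in S34F and at 21.8, 22.2 and 17.7 FPKM in WT. Here the S34F libraries were spread over a wider range than the WT libraries.

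The opposite pattern was seen in BCAS2, a core subunit of the PRP19 complex, at 17.3, 17.96 and 27.1 FPKM in S34F and at 14.5, 17.0 and 18.7 FPKM in WT. BUD31 was read at 31.3, 35.3 and 48.7 FPKM in S34F and at 32.5, 33.0 and 39.5 FPKM in WT. In both genes replicate 3 was the highest library of its group, more so in S34F. SLU7, a factor for the choice of the 3′ splice site in the last step, was at 5.999, 6.44 and 10.7 FPKM in S34F but at 6.97, 6.17 and 6.93 FPKM in WT, so it stood out in one library alone. The 8 components highest in both replicates 3 were PRPF6, BUD31, XAB2, BCAS2, PPIE, SYF2, RP9 and ISY1-RAB43, and 5 of them belong to the PRP19 group.

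By role, all 7 Sm genes lay below the mean of replicates 1 and 2 in both replicates 3, and 5 of 7 were the lowest of their group in both. The median deviations were -0.27 in S34F replicate 3 and -0.25 in WT replicate 3, and SNRPG, SNRPD3 and SNRPD2 were nearly level in one of these libraries. The summed Sm level was 636, 646 and 512 FPKM in S34F and 609, 615 and 529 FPKM in WT. The U1 genes had median deviations of -0.08 and -0.35 and the U2 genes of -0.08 and -0.13. The PRP19 genes differed between the 2 replicates 3, since 16 of 20 lay above the mean of the others in S34F replicate 3 but 6 of 20 in WT replicate 3, with medians of 0.23 and -0.09. GC content of the longest coding transcript was correlated with the deviation in WT replicate 3 (r = 0.383, rho = 0.417, n = 101 genes) and hardly in S34F replicate 3 (r = -0.08, rho = -0.0922), over genes that share these libraries. Its part in the result was not tested.

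**Figure D4:**
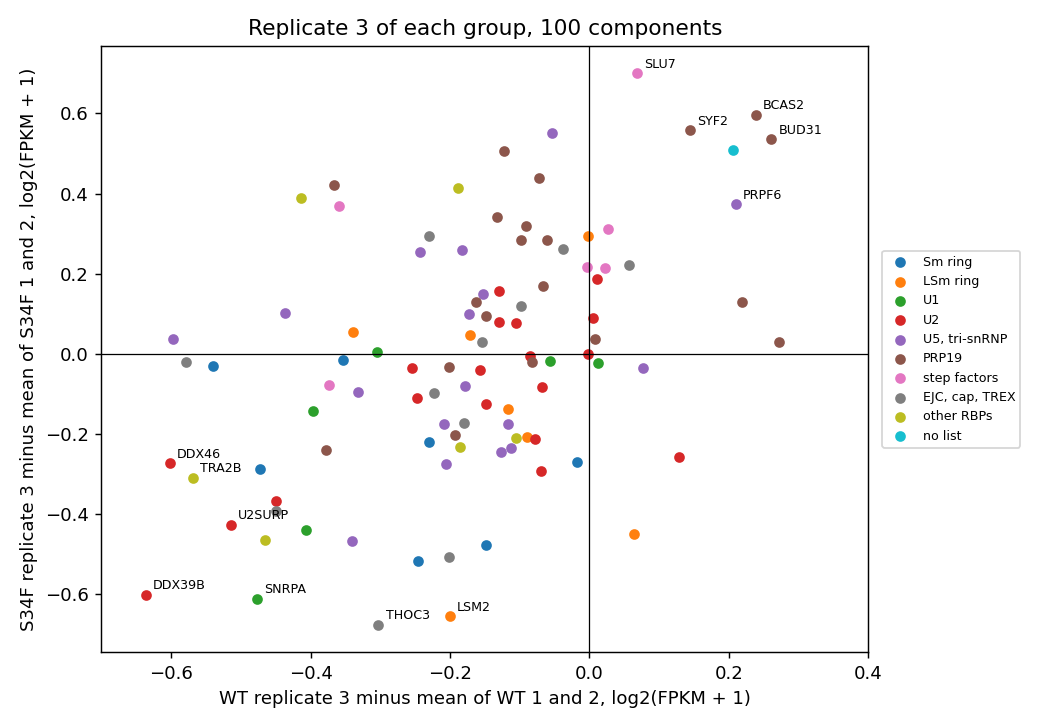
Deviation of each component in WT replicate 3 (horizontal) and S34F replicate 3 (vertical) from the mean of replicates 1 and 2 of its group, on the log2(FPKM + 1) scale, coloured by role. DDX39B, SNRPA and THOC3 lie low in both and BCAS2 and BUD31 high in both, and ISY1-RAB43, at 1.52 and 1.39, is outside the plotted range of 100 components.

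The calls between S34F and WT changed with these libraries. Without both replicates 3, 12 components passed an unadjusted p of 0.05, against 16.9% of all genes tested. Of these, 8 were higher in S34F (SNRPB, PCBP1, LSM2, PHF5A, SF3A2, XAB2, THOC3 and SNRNP40), against 8.16% of all genes tested, and 4 were lower (SNRNP27, ISY1, NCBP1 and PRPF18), against 8.71%. None had a fold above 1.5 and none passed adjustment, the smallest adjusted p being 0.155 by limma. For SNRPB the log2 difference was then 0.16, with limma adjusted p = 0.19, against a difference of 0.05 over all 6 libraries. For LSM2 it was 0.16, with limma adjusted p = 0.18, against a difference of 0.01. Without S34F replicate 3 alone, 6 components were called, against 10.6% of all genes tested, and without WT replicate 3 alone 2, against 3.19%.

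Of the genes of the pathway outside the annotated term none was called, where 2.39% of all genes tested were. In the minor spliceosome, which removes a rare class of introns, 8 of 11 listed genes were tested and 0 were called, with a median log2 difference of 0.08. Of 20 genes for snRNP assembly, among them the SMN complex and the methylosome, 20 were tested and 0 were called, with a median of 0.04. PHAX, the export adaptor of snRNAs, at 3.29, 3.66 and 3.69 FPKM in S34F and 3.05, 3.24 and 2.85 FPKM in WT, and LSM10, of the U7 ring, at 32.8, 29.02 and 29.2 FPKM in S34F and 27.9, 28.2 and 22.8 FPKM in WT, did not overlap between groups. Their log2 differences were 0.17 and 0.20, and neither passed an unadjusted 0.05 by limma. They were 2 of 20 assembly genes higher without overlap, where 3.66% of all genes tested were. In this list 0 were lower without overlap, where 3.73% of all genes tested were. Of 8 splicing kinases of the SRPK, CLK and related families 6 were tested and 0 were called, with a median of 0.003.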

How the data were processed

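RNA-seq values came from 1 deposited table with 31142 genes and 6 libraries, 3 S34F and 3 WT, grouped by their titles. The authors deposited FPKM per gene and library. The table is named for raw counts, but 99.99% of its values above 0 are not whole numbers. The submitters' processing notes name StringTie and edgeR without versions or roles, and the aligner and build are not given in the sources used here. The authors' columns of fold change, log2 fold change, p-value, q-value, regulation and significance were not used, and every per-sample column was mapped.

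The 10942 genes averaging 1 FPKM or more were fitted with limma 3.58.1 in R 4.3.3 on log2(FPKM + 1), with a mean-variance trend, no replicate block and Benjamini-Hochberg adjustment. Fold changes on this scale understate those of low genes. Calls used unadjusted p under 0.05, alone or with a fold above 1.5, and adjusted p under 0.05. The script was run on simulated data with independent noise in each library. That run holds no shift shared between libraries, so it does not bear on the calls made here. Depth was estimated from single-exon genes and limits low levels, and no counting intervals were made. Coordinates came from GENCODE 29 by gene identifier, and windows from RefSeq on GRCh38.p14 by symbol. Other steps used Python 3.11.15 with scipy 1.17.1, pandas 2.3.3 and numpy 2.4.6, and matplotlib 3.10.9 drew the plots.

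Components, role lists and outside lists were chosen with earlier results of these data known, so counts over them are descriptions. Genes were named if they passed unadjusted p of 0.05, if their groups did not overlap, if they were the 8 highest or 4 lowest in level, the 6 most variable, or the extremes of a role, and if they were U2 genes, ATPases or paralogs. BUD31, SNRNP70, NCBP2, other single genes of the ring and role accounts, and PHAX and LSM10 were chosen after their values were seen. A few single components enter the counts and are not reported here by name.

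Replicate numbers were checked as pairs by the correlation of deviations from group means over the genes tested. It was 0.212, 0.174 and 0.38 for libraries numbered 1, 2 and 3, each above 0.1, and the study speaks of pairs of RNA samples, so a fit with the replicate block was run beside the main one. S34F replicate 2 with WT replicate 1 gave 0.197, so the pairing rests mostly on replicate 3. Other alternatives were scalings, pseudocount 0.1, a minimum of 5 FPKM or none, no trend, robust variances, and libraries left out.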

Additional observations from a re-analysis of the deposited data

How the results depend on the processing

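No call of a component passed adjustment under any setting tried, and no difference of PRPF38B, EIF4A3, SMNDC1, PHF5A, SF3B5, SNRNP70, NCBP2 or BCAS2 changed its sign. Only the scalings, the pseudocount and the left-out libraries could change a difference, since the block, the variance settings and the minimum level leave it as it is. The genes were also picked by their values in these same libraries, which makes a stable sign likely. The replicate block changed no call, with 1 component called (PRPF38B), against 4.05% of all genes tested. In this balanced design the block can change only the p-values. The counts without overlap (5 above and 0 below) and the median of 0.04 stay as they are by construction. Leaving out 1 library at a time gave 1 to 6 called components, 1 to 2 with a fold above 1.5, and a median between -0.01 and 0.07. The 6 came without S34F replicate 3, where 10.6% of all genes tested were called. No share of all genes is given for the fold limit in these fits. Without overlap 5 to 26 components (4.95% to 25.7%) lay higher, against 6.59% to 18.2% of all genes tested. Lower without overlap were 0 to 11 (0% to 10.9%), against 5.5% to 15.6%. Above 0 lay 49 to 81 (48.5% to 80.2%), against 47.8% to 57.3%. The largest count of higher genes, 26 (25.7% against 18.2% of all genes tested), came without S34F replicate 3, and the largest count of lower genes, 11 (10.9% against 11.6%), without WT replicate 3. Of single genes, PRPF38B passed an unadjusted 0.05 by limma in all 6 of those fits and not without both replicates 3, where its difference was 0.71. Without both replicates 3 12 components were called, 0 with a fold above 1.5, 30 lay above (29.7% against 24.8% of all genes tested) and 28 below (27.7% against 26.6%) without overlap, and 48 had a difference above 0. Fewer libraries per group make groups without overlap more frequent by construction. Median-ratio and upper quartile scaling each gave 1 lower component without overlap (0.99%), CCDC12, against 4.24% and 4.45% of all genes tested. Quantile normalization gave 2 (1.98%), CCDC12 and SART1, against 4.24%. Under each of these scalings 4 components (3.96%), all but SF3B5 of the 5, were higher without overlap. The shares of all genes tested were 3.25%, 2.97% and 3.58% in that order. A minimum of 5 FPKM left 85 components and dropped PRPF38B and SMNDC1. There 0 were called, 0 with a fold above 1.5, and 3 lay above without overlap (3.53% against 3.43% of the genes tested). The share above 0 was 72.3% as deposited (54.6% of all genes tested), 87.1% with equal sums (63.5%) and 61.4% with quantile normalization (52.6%).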
